A study of Mus musculus with 18 samples.

Results

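The 6 control libraries of a study of mouse heart apex were compared by batch, and described together as the baseline of that tissue. They are 6 of the 18 libraries of the series and were chosen by their labels: Control_377, Control_378 and Control_827 are titled as controls of batch LC, and Control_774, Control_775 and Control_826 as controls of batch LA. The study asked how raising lamin A or lamin C acts on dilated cardiomyopathy made by knockdown of Lmna, with delivery by rAAV9, an adeno-associated virus vector. All 18 libraries are labelled wild type in genotype, and the other 12 come from hearts labelled L881 (the Lmna shRNA) alone in each batch, L881 with lamin C in batch LC, and L881 with lamin A in batch LA, 3 libraries in each group. What the control animals received, their age and sex, and the hour at which the hearts were taken are not given in the sources used here. Nothing says which libraries came from separate animals, so p-values measure the spread between these libraries, which may be technical.

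The circadian clock is a loop of transcription factors that runs in most cells. ARNTL (BMAL1) pairs with CLOCK or NPAS2 and binds E-boxes to turn on the Per, Cry, Nr1d and PAR bZIP genes. PER and CRY proteins then hold that pair back, and NR1D proteins repress Arntl itself, so Arntl and Per2 peak at opposite ends of the day. The heart has its own clock, and genes of fuel use such as Pdk4, which limits the entry of pyruvate into the citric acid cycle, follow the time of day and feeding.

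One library has to be described before any comparison. Control_827 is titled LC, but by the distances given here it lay with the controls titled LA. The distance between libraries was taken as the standard deviation (SD) over genes of the log2 ratio of CPM (counts relative to the library total as scaled by TMM). The genes were the 10983 with at least 5 CPM in some control. Control_827 was at 0.189, 0.199 and 0.186 from the 3 LA controls, and at 0.287 and 0.279 from Control_377 and Control_378. The LA controls were at 0.162 to 0.195 from each other, Control_377 and Control_378 at 0.175 from each other, and those 2 at 0.267 to 0.281 from the LA controls. So Control_827 was about as near to the LA controls as they were to each other, and as far from Control_377 and Control_378 as the LA controls were. The main counts of genes called between the control batches are given with all 3 LC controls and without Control_827. A gene whose difference is given only without Control_827 was not called with all 3 LC controls. The cause of its position was not tested, and its label was kept. Control_827 was singled out with its values known, and leaving out a distant library narrows the spread within its group. The p-values and counts without Control_827 depend on that choice and are given as a description.

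**Figure D1:**
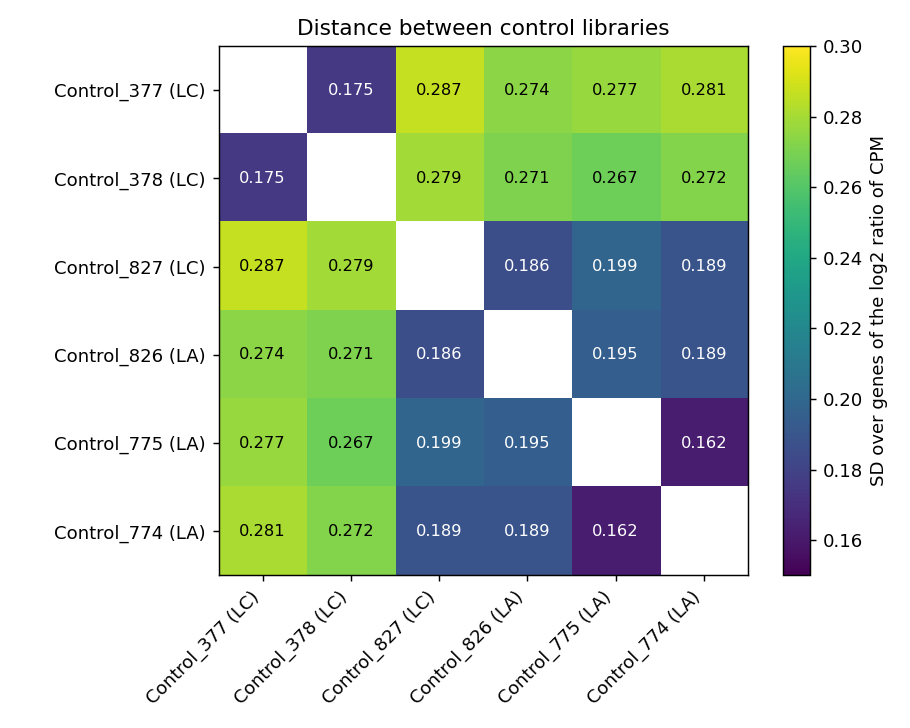
Distance between each pair of the 6 control libraries, as the SD of the log2 ratio of TMM-scaled CPM over genes with at least 5 CPM in some control. Both axes list the libraries with their batch, and the colour and the number give the distance. Control_827 sits between 0.186 and 0.199 from the LA controls and at 0.279 and 0.287 from the other LC controls.

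The libraries held 31898146 to 36042583 counts each over 54532 genes, and 17876 genes passed a filter on low counts and were tested. At this depth 3 counts, taken as the limit that a count of 0 allows, are 0.0955 to 0.108 CPM (counting error only). The labelled tissue matched its markers. All 10 ventricular cardiomyocyte markers had a median of at least 1 FPKM (fragments scaled by gene length and library size), and so had 6 of 11 atrial markers, led by Nppa at 263.5 FPKM and Kcnj3 at 16.1. Of the other atrial markers, Myl7, Bmp10 and Sln had medians of 0.113, 0 and 0 FPKM. Lmna, the gene the study targets, was at 122, 129 and 119.8 CPM in the LC controls and 120, 119.6 and 112 CPM in the LA controls. The groups overlapped, and the difference of 0.08 ± 0.08 (log2, LC minus LA, ± SE) did not pass the test (edgeR quasi-likelihood, Benjamini-Hochberg adjusted p = 0.77).

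Heart apex is mostly ventricular wall, and its most abundant nuclear messages per length were those of oxygen storage, contraction and calcium cycling. Mb (myoglobin) led with a median of 6750 FPKM over the 6 controls (range 6620 to 7020). Actc1, cardiac actin, followed at 5951 (5850 to 6199), then Myh6, the fast adult myosin heavy chain, at 5028 (4752 to 5248), and Myl2, the ventricular regulatory light chain, at 3677 (3469 to 3792). Fabp3, the fatty acid carrier of the cytosol, was at 3485 FPKM. Pln (phospholamban) and Atp2a2 (SERCA2), the calcium pump it restrains, were nearly level at 2533 and 2482. The slow myosin heavy chain Myh7 stood at 25.8 FPKM (20.7 to 28.7), far below Myh6. Among the top 25 were also Slc25a4, the adenine nucleotide carrier, Tnni3, Tnnc1 and Tnnt2 of the troponin complex, the ATP synthase subunits Atp5a1 and Atp5b, and Ckmt2, the mitochondrial creatine kinase.

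**Figure D2:**
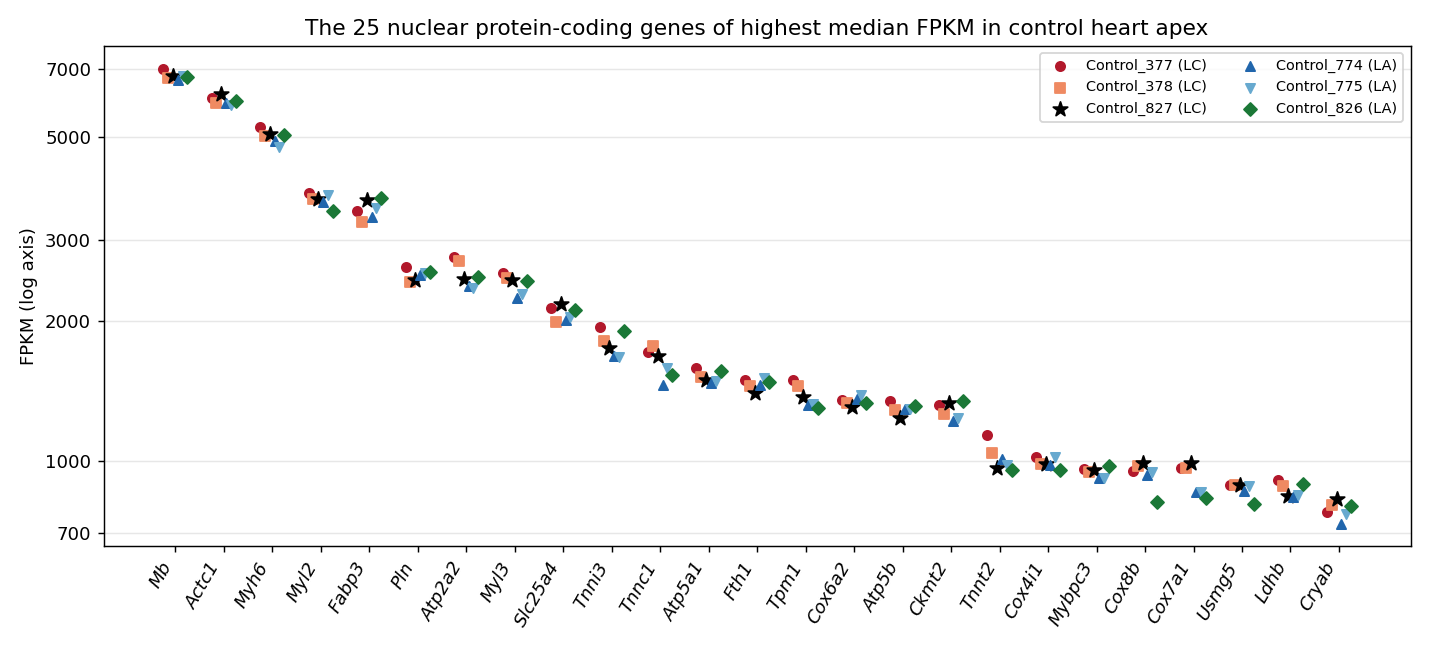
FPKM (log axis) of the 25 nuclear protein-coding genes with the highest median over the 6 control libraries, ordered by that median. Each symbol is 1 library, with its batch in the legend. The 6 libraries lie close together for each gene: Mb runs from 6620 to 7020 and Actc1 from 5850 to 6199.

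Of 22033 protein-coding nuclear genes, 10421 had a median of at least 1 FPKM, 3440 of at least 10, 336 of at least 100 and 17 of at least 1000. The 10 most abundant carried 15.3% of the summed medians and the 100 most abundant 37%. Messages encoded by the mitochondrial genome ran from mt-Co1 with a median of 70890 FPKM, mt-Cytb with 39760 and mt-Nd1 with 33170, above any nuclear gene, down to mt-Nd6 with 499.8 and mt-Atp8 with 255. Several of the lower ones varied widely between the controls, so their levels are uncertain. The range was 159.9 to 343.5 FPKM for mt-Atp8, 211 to 2827 for mt-Nd3 and 1931 to 7511 for mt-Co2. Of the enzymes of fuel use, Acadl, the long-chain acyl-CoA dehydrogenase, was at 532 FPKM (507 to 567), Idh2 of the citric acid cycle at 639 (576 to 722) and Ldhb, the lactate dehydrogenase subunit of heart, at 864 (835 to 908). Other cell types of the heart were present at lower levels: Fabp4 and Cdh5 of endothelium at 123 and 72.2 FPKM, Dcn of fibroblasts at 85.8, Rgs5 of pericytes at 189.6 and C1qa of macrophages at 51.4. In bulk RNA, fewer cells of a type and less RNA per cell cannot be told apart.

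Most genes varied little among the 6 controls. Over 10153 protein-coding genes with a median of at least 5 CPM, the highest library was 1.19 times the lowest at the median gene and 1.6 times at the 95th percentile. The ratio stayed under 1.5 for 92.1% of them and reached 2 for 172 (1.69%). Arntl, Per2 and Dbp, clock genes described next, were among the 10 protein-coding genes of widest log2 range over the 5 controls other than Control_827.

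The comparison of the batches asks how far the controls of LC and LA differ. With all 3 LC controls, 19 of 17876 genes were called at an adjusted p under 0.05 (edgeR), 11 higher in LC (0.0615% of genes tested) and 8 lower (0.0448%), and 2064 had an unadjusted p under 0.05. The 3 LC and 3 LA libraries did not overlap for 2604 genes (14.6%). For a gene with no difference, 3 against 3 libraries part in this way with a probability of 0.1. Without Control_827 the same fit called 831 genes, 397 higher (2.22%) and 434 lower (2.43%), and all 19 were among them. Without Control_377, Control_378, Control_774, Control_775 or Control_826, one at a time, no gene was called, and with the 6 controls fitted alone none was either. DESeq2 called 192 with all 3 LC controls. Without Control_827, dropping 1 further control gave between 261 (without Control_377) and 632 (without Control_826), with 358 without Control_378, 477 without Control_774 and 519 without Control_775.

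Core clock genes differed between Control_377 and Control_378 on one side and all other controls on the other. Of 22 members, 4 were higher in LC with all controls (Per2, Ciart, Tef and Hlf) and none was lower, where 0.0615% and 0.0448% of all genes were. Without Control_827, 12 were higher and 3 lower, where 2.22% and 2.43% of all genes were, with a median of 0.65 (log2) over the list and -0.0014 over all genes. The count of 15 was 13 to 15 when 1 further control was left out, and 15 with DESeq2. For 14 of these 15 genes Control_827 was nearer the mean of the LA controls than that of Control_377 and Control_378. Cry1 was the exception.

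**Figure D3:**
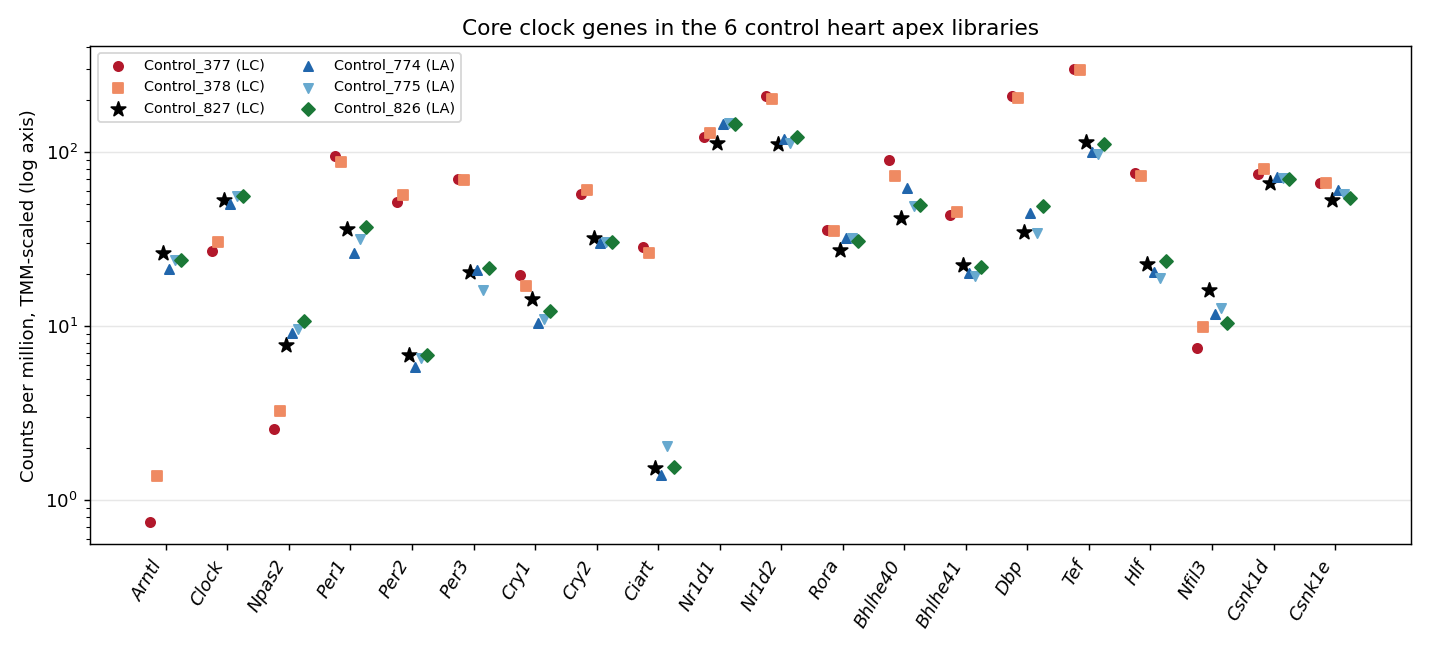
TMM-scaled CPM (log axis) of 20 of the core clock genes in the 6 control libraries. Each symbol is 1 library, and the black star is Control_827. For Arntl, Per2, Ciart and Dbp the star lies with the blue and green LA symbols, far from the red Control_377 and Control_378: Arntl was at 0.752 and 1.37 CPM in those 2 and at 26.2 in Control_827.

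The activators were low in Control_377 and Control_378. Arntl (ENSMUSG00000055116, mm10 chr7:113207465-113314126, plus strand) was at 0.752 and 1.37 CPM in these 2 libraries and 26.2 in Control_827, and at 21.4, 23.9 and 24.0 in the LA controls. Control_827 was the highest of the 6 and overlapped none of its batch. The difference was -1.31 ± 0.61 with all controls (edgeR adjusted p = 0.413) and -4.45 ± 0.19 without Control_827 (edgeR adjusted p = 2.9e-11). Its partner Clock was at 27.2, 30.3 and 53.3 CPM in LC (Control_377, Control_378 and Control_827, in this order here and below) and 50.3, 55.7 and 56.2 in LA. Npas2, which can take the place of CLOCK, was at 2.58, 3.26 and 7.77 against 9.10, 9.63 and 10.7, so that here Control_827 was below all LA controls but nearer to them. Without Control_827 Clock was lower by -0.91 ± 0.07 and Npas2 by -1.75 ± 0.19 (edgeR adjusted p = 2.4e-07 and 1.2e-05). Neither passed with it (adjusted p = 0.152 and 0.0959).

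The repressors stood the other way. Per2 (ENSMUSG00000055866, chr1:91415982-91459324, minus strand) was at 51.3 and 56.3 CPM in Control_377 and Control_378, 6.80 in Control_827, and 5.79, 6.60 and 6.82 in LA. Per1 was at 94.8, 87.8 and 36.3 against 26.2, 31.6 and 37.3, and Per3 at 70.1, 68.8 and 20.4 against 21.0, 16.1 and 21.5. For all 3 Period genes Control_827 fell inside the range of the LA controls. Ciart (CHRONO; ENSMUSG00000038550, chr3:95878503-95882251, minus strand), a further repressor of the ARNTL pair, was at 28.5, 26.3 and 1.54 CPM against 1.40, 2.06 and 1.55. Its difference was 3.49 ± 0.59 with all controls (edgeR adjusted p = 0.0303) and 4.03 ± 0.16 without Control_827 (edgeR adjusted p = 1.3e-11), the largest rise among the protein-coding genes called without Control_827. Per2 was higher by 2.58 ± 0.45 and 3.07 ± 0.15 (edgeR adjusted p = 0.0318 and 2.6e-10). Per1 and Per3 did not pass with all controls (1.21 and 1.45, edgeR adjusted p = 0.0507 for both). Without Control_827 they were higher by 1.53 and 1.83 (edgeR adjusted p = 1.2e-06 and 2.2e-08).

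Of the cryptochromes, Cry2 was at 57.6, 60.3 and 32.0 CPM against 30.1, 30.4 and 30.3, and was higher without Control_827 by 0.96 ± 0.09 (edgeR adjusted p = 1.1e-06). Cry1 was at 19.6, 17.0 and 14.4 against 10.4, 10.97 and 12.2 (0.71 ± 0.15, edgeR adjusted p = 0.0087 without Control_827). Control_827 was about midway between the groups for Cry1. Bhlhe41, a repressor that binds E-boxes, was at 43.6, 45.1 and 22.6 against 20.2, 19.5 and 21.8 (1.11 ± 0.10 without Control_827). With all controls Cry2, Cry1 and Bhlhe41 did not pass (edgeR adjusted p = 0.0702, 0.103 and 0.0593).

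The PAR bZIP factors, which bind D-boxes and pass the rhythm to output genes, were all high in Control_377 and Control_378. Dbp was at 210.1, 205 and 34.6 CPM against 44.8, 34.5 and 48.8, Tef at 302, 296 and 115 against 100.4, 96.8 and 112, and Hlf at 76.0, 72.9 and 22.7 against 20.3, 18.8 and 23.7. In each, Control_827 was at or near the LA level. Tef and Hlf passed with all controls (1.21 ± 0.22 and 1.45 ± 0.28, edgeR adjusted p = 0.038 and 0.0499), and Dbp did not (1.81 ± 0.42, edgeR adjusted p = 0.0882). All 3 passed without Control_827, Dbp at 2.28 ± 0.23 (edgeR adjusted p = 5.2e-06).

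The nuclear receptors of the second loop were uneven. Nr1d2 was at 211, 200.5 and 111 CPM against 119, 112 and 123 and was higher without Control_827 (0.80 ± 0.11, edgeR adjusted p = 0.00011). With all controls Nr1d2 did not pass (0.562, edgeR adjusted p = 0.168). Nr1d1 was at 123, 129 and 112 against 145, 147 and 146, and its difference of -0.22 did not pass (edgeR adjusted p = 0.57 without Control_827). Rora, Nfil3, Csnk1d and Csnk1e were not called either.

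Promoter sequence is shown for 5 of these genes, which carry the 2 opposite patterns: Ciart, Per1, Per3 and Tef, high in Control_377 and Control_378, and Arntl, low there. All 5 hold a match to a motif marked below, and other genes with these patterns are not shown. Each window runs from 250 bases before to 50 after a start site in RefSeq (GRCm38.p6, the assembly of mm10), 5′ to 3′ on the gene's strand, and capitals mark matches on either strand to CACGTG (an E-box), TTATGTAA or TTACGTAA (D-boxes), AGGTCA (the core of a site for ROR and NR1D proteins) and TGACGTCA (a CRE). Where a gene has several windows, 1 with a match is shown.
Ciart, chr3:95882179-95882478, minus strand: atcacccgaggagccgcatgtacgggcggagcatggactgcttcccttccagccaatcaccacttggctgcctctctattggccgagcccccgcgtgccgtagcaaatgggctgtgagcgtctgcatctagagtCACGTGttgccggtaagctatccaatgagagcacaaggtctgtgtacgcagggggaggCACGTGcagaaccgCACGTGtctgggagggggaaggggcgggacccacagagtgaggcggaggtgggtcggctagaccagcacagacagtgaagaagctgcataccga
Per1, chr11:69098699-69098998, plus strand: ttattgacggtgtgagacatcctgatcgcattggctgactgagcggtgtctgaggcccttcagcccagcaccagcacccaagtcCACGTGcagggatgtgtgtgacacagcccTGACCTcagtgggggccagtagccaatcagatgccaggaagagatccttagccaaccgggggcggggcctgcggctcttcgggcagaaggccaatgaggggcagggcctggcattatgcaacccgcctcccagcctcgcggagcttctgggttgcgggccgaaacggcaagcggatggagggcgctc
Per3, chr4:151044616-151044915, minus strand: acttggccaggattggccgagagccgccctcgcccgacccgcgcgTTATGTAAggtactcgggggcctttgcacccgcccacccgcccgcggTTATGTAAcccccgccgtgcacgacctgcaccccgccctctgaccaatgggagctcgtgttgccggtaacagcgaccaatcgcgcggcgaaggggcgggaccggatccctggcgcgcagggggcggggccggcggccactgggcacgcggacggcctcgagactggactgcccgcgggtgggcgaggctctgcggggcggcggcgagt
Tef, chr15:81802423-81802722, plus strand: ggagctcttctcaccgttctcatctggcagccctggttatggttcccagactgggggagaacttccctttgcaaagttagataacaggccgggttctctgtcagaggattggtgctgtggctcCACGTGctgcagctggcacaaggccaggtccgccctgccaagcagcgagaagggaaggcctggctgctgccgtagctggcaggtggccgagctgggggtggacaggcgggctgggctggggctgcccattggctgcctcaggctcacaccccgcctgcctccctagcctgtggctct
Arntl, chr7:113207261-113207560, plus strand: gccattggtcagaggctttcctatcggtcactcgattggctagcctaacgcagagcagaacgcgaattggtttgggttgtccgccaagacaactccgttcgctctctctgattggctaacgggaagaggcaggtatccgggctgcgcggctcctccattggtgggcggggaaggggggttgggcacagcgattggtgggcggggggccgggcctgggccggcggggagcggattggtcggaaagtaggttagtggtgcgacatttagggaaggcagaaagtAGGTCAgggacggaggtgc
Ciart held 3 E-boxes, 116, 58 and 44 bases before its start, Per1 and Tef 1 each, 166 and 127 bases before theirs, and Per3 2 D-boxes, 205 and 158 bases before. Arntl held 1 AGGTCA, 31 bases after this start, and Per1 held 1 on the other strand, 137 bases before. RefSeq windows matched 17 of the 22 core clock genes, and 11 of the 17 held a match to any of the motifs. The 5 genes shown are all among those 11. CACGTG was in 5 of the 17, where 8.09% of all 27025 genes with a window held it. A gene counted once if any of its windows held the letters. AGGTCA was in 5 and in 18.1% of all genes, TTATGTAA in 1 and in 1.11%, TTACGTAA in none and in 0.126%, and TGACGTCA in 1 (Hlf) and in 2.03%. None of these motifs overlaps another in the 5 windows shown. A match describes the letters and is no evidence of binding.

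Genes known as outputs of the clock were also called. Of 25 clock output genes tested, 1 was higher with all controls (0.0615% of all genes were), and 12 were higher and 5 lower without Control_827 (2.22% and 2.43% of all genes were), with a median of 0.40 (log2) against -0.0014 over all genes. Wee1, a cell cycle kinase under clock control, was at 23.3, 23.0 and 10.7 CPM in LC and 6.37, 7.25 and 7.75 in LA, with no overlap, and had the smallest adjusted p of the comparison (1.42 ± 0.20, edgeR adjusted p = 0.0131). Here Control_827 lay between the other LC controls and LA. Coq10b, Usp2 and Tspan4 had Control_827 inside the LA range: Usp2, a deubiquitinase, was at 180.4, 187 and 82.4 CPM against 87.1, 81.8 and 84.6. Cdkn1a, which encodes the cell cycle inhibitor p21, was lower without Control_827 (9.02, 11.5 and 24.8 CPM against 32.1, 37.1 and 26.5, -1.64 ± 0.13, edgeR adjusted p = 3.1e-07).

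Part of the list of genes that fasting and PPAR receptors raise in heart was low in Control_377 and Control_378. Of 17 tested, 9 were lower without Control_827 (2.43% of all genes were) and none was higher, with a list median of -0.36 (log2). Other members overlapped LA. Lpl was at 640.8 and 626.4 FPKM in Control_377 and Control_378 against 627.7, 617.1 and 664.5 in LA. Fabp3 was at 3460 and 3284 FPKM against 3359, 3510 and 3685. With all controls only Ucp3 of this list was called. Pdk4 (ENSMUSG00000019577, chr6:5483351-5496309, minus strand) was at 165 and 169 CPM in Control_377 and Control_378, 601 in Control_827, and 846, 819 and 784 in LA. No LC library reached the lowest LA one, yet Control_827 was nearer to LA. The difference was -2.29 ± 0.26 without Control_827 (edgeR adjusted p = 1.5e-05) and -1.39 ± 0.37 with it (edgeR adjusted p = 0.128). Angptl4, a secreted inhibitor of lipoprotein lipase, was at 1.31, 5.23 and 23.3 against 29.5, 44.0 and 35.6 (-3.50 ± 0.42 without Control_827, edgeR adjusted p = 4.0e-05). With all controls its difference was -1.89 and did not pass (edgeR adjusted p = 0.146). Ucp3, an uncoupling protein of the mitochondrial inner membrane, was at 41.4, 40.9 and 68.9 against 119.7, 115 and 110.3, and passed with all controls (-1.19 ± 0.22, edgeR adjusted p = 0.0464). Cd36, which takes up fatty acids, was lower by less: 1514, 1493 and 1868 against 1915, 1874 and 1946 (-0.35 ± 0.08 without Control_827, edgeR adjusted p = 0.0189).

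The enzymes that burn the fuel were not called. In the lists of fatty acid oxidation (19 genes), the citric acid cycle (16), the respiratory chain (23) and mitochondrially encoded genes (13), no member was called with or without Control_827, and list medians lay between -0.086 and 0.042 (log2). The share of all counts from mitochondrially encoded genes did part the batches as labelled. It was 25.45%, 25.44% and 25.19% in Control_377, Control_378 and Control_827, and 26.81%, 27.02% and 26.38% in the LA controls. Here Control_827 was the lowest of all and on the side of its label. The means were 25.4% ± 0.147 and 26.7% ± 0.326 (SD, n = 3 each), a difference of -1.38 percentage points (two-sided exact permutation test p = 0.1, the smallest that 3 against 3 can give). In the Lmna shRNA hearts the batches overlapped in this share, with 14.74%, 15.62% and 12.96% in LC and 14.11%, 15.06% and 14.07% in LA.

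The other lists are given beside the shares over all genes in the fit without Control_827, 2.22% higher and 2.43% lower. Of 22 sarcomere genes, only Tcap, a protein of the Z-disc edge, was higher without Control_827: 1681, 1451 and 615 CPM against 729, 694 and 761 (1.10 ± 0.10, edgeR adjusted p = 9.6e-07). Control_827 was the lowest of the 6. Of 20 matrix genes, 5 were lower without Control_827 (Col4a1, Col4a2, Loxl1, Eln and Fbn1) and none with all controls. Eln, elastin, was at 44.1, 46.1 and 106.6 CPM against 133, 115 and 96.2 (-1.35 ± 0.17, edgeR adjusted p = 5.5e-05). Jun, Ier3 and Nr4a3 were higher, 3 of 20 immediate early genes, and Tsc22d3, Zbtb16 and Per1 were higher and Lcn2 lower among 14 glucocorticoid response genes, again only in the fit without Control_827. Summed fibroblast marker levels ran from 2520 to 3120 CPM in LC and 2860 to 3170 in LA, endothelial ones from 2240 to 2400 and 2360 to 2500, with Control_827 the highest LC library in both. Their part in these counts was not tested. Of 17 nuclear lamina genes none was called with all controls, and Syne1 and Syne3, nesprins of the nuclear envelope, were lower without Control_827 (-0.31 ± 0.08 and -0.92 ± 0.21).

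Over all 831 genes called without it, Control_827 was nearer the LA mean in 747 (89.9%) and nearer the mean of Control_377 and Control_378 in 84. On a scale where 0 is the LA mean and 1 the mean of those 2, its median position was 0.0763 (quartiles -0.11 and 0.25). In 513 it lay within the LA range or on the far side of it, and in 20 it was as far out as the nearer of Control_377 and Control_378. Control_827 was left out of the fit that chose these genes, but the filter and the scaling factors were computed with it. Both ends of the scale come from the libraries whose difference chose the genes. That choice alone can place a left-out library short of 1.

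**Figure D4:**
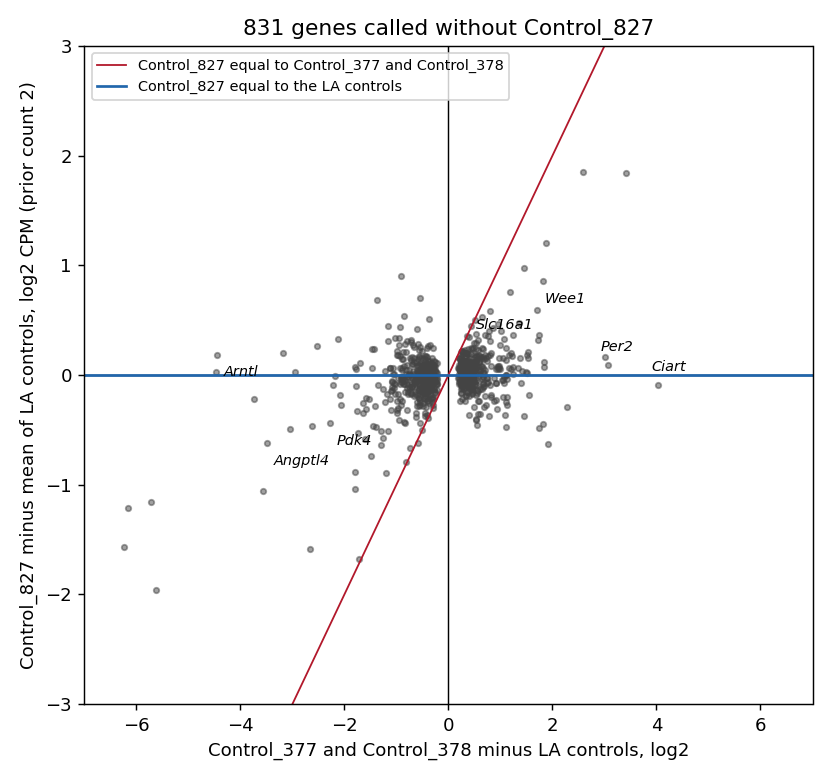
The 831 genes called without Control_827. The horizontal axis is the log2 difference of Control_377 and Control_378 from the LA controls, the vertical axis that of Control_827 from the LA mean, and each dot is 1 gene. The dots follow the blue line, where Control_827 equals the LA controls, more than the red line, where it equals the other LC controls: 747 of 831 are nearer LA.

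Of the 19 genes called with all controls, a choice in which Control_827 had a part, it was nearer LA in 11 and nearer Control_377 and Control_378 in 8. Slc16a1, the monocarboxylate transporter MCT1 for lactate and ketone bodies, was at 365, 357 and 350.3 CPM in LC and 260.3, 276 and 289.5 in LA, with no overlap (0.38 ± 0.06, edgeR adjusted p = 0.0227). Tigar, a phosphatase that lowers glycolytic flux, was at 85.8, 89.4 and 76.5 against 57.8, 63.9 and 65.9 (0.42 ± 0.07, edgeR adjusted p = 0.0227). Lipe, hormone-sensitive lipase, was lower in LC, at 42.9, 47.0 and 48.1 against 62.2, 63.3 and 58.3 (-0.41 ± 0.08, edgeR adjusted p = 0.038), and so was Slc25a22, a mitochondrial glutamate carrier, at 42.6, 42.6 and 46.0 against 65.7, 62.0 and 59.4 (-0.51 ± 0.09, edgeR adjusted p = 0.0377). Ahctf1, a nuclear pore component, was higher, and Gatd1, Gm12963 and Ptger3 were lower. Ptger3 had no count in any LC control and 0.0955, 0.196 and 0.216 CPM in LA, at or just above the limit of 3 counts, so no fold is given. The remaining called genes were Lonrf1, Dnajb5 and Cipc, a CLOCK-interacting protein, higher in LC, and Efhd1 and Epha4, lower. As above, none of the 19 calls held when any one of the other 5 controls was left out, and all held without Control_827.

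Control_827 had few genes of its own. Of 10983 genes with at least 5 CPM in some control, it lay at least 2-fold outside the other 5 libraries in 2 (0.0182%). The same count was 2 (0.0182%) for Control_377, 1 (0.0091%) for Control_378, 1 (0.0091%) for Control_774, 3 (0.0273%) for Control_775 and 4 (0.0364%) for Control_826. Its 2 were mt-Nd3, a subunit of respiratory complex I, at 1004 CPM against 74.9 to 237 in the others, and H19, a noncoding RNA of an imprinted locus, at 19.1 against 3.27 to 8.46, named after its values were seen. Some other mitochondrially encoded genes also scattered among the controls. The range was 1931 to 7511 FPKM for mt-Co2 and 788.6 to 2164 for mt-Nd4l, where mt-Co1 ran from 66760 to 71640. The level of mt-Nd3 in Control_827 is therefore uncertain. Short of 2-fold, Nppb, the B-type natriuretic peptide that rises with wall stress, was at 235 CPM against 79.9 to 134, and the receptor Tnfrsf12a at 56.5 against 22.7 to 35.6. The activity-driven genes Fos, Nr4a1 and Dusp1 were lowest in Control_827: Fos was at 1.47 CPM against 2.92 to 11.3. Markers of mesothelium, the outer lining of the heart, summed to 12.7 CPM in Control_827 and 4.21 to 7.03 in the others, with Upk3b at 4.08 against 0.0637 to 0.325 and Msln at 2.51 against 0.098 to 0.505. Their part in the other differences was not tested.

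Hearts labelled as given the Lmna shRNA offer the same comparison of batches with no library in common with the controls. There, 188 genes were called between LC and LA, 95 higher in LC (0.531%) and 93 lower (0.52%). The count was 56 without the first LC library of that group, 103 without the third, 61 without the second LA library and 78 without the last. Of the 831 genes called in controls without Control_827, 704 (84.7%) had the same sign in the shRNA hearts. The same-sign share over all genes tested was not computed, so how far 84.7% exceeds it is not known. Called in both in the same direction were 72 genes, 8.66% of the 831 and 38.3% of the 188, and 1 was called in opposite directions. All 18 libraries were fitted together, so both comparisons share the estimate of the spread.

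Clock genes were among the shared ones. Of 22 core clock genes, 10 were higher and 2 lower in LC in shRNA hearts, where 0.531% and 0.52% of all genes were. Arntl was at 5.25, 5.73 and 5.45 CPM in the LC shRNA hearts and 33.6, 32.9 and 30.5 in the LA ones (-2.56 ± 0.61, edgeR adjusted p = 0.0489). Per2 was at 37.9, 33.1 and 40.2 against 8.66, 5.05 and 6.28 (2.48 ± 0.43, edgeR adjusted p = 0.007). In the hearts with added lamin, Arntl was at 1.90, 1.28 and 2.26 CPM with lamin C (all LC) and 33.4, 29.8 and 35.7 with lamin A (all LA). Batch and the lamin added cannot be told apart in these hearts. Control_827 was thus the 1 library titled LC with an Arntl level like those titled LA. None of the 17 fasting and PPAR genes was called between the shRNA batches: Pdk4 was at 230.3, 177 and 349 CPM in LC and 445, 329 and 317 in LA (-0.53 ± 0.36, edgeR adjusted p = 0.69). The difference of this effect from that in controls was not called for any of these genes with all controls fitted. Without Control_827 that test called 48 of all genes tested. Its outcome there for the fasting and PPAR genes is not reported here. Of 14 glucocorticoid response genes, 5 were higher in LC shRNA hearts (Tsc22d3, Per1, Klf9, Cebpd and Ddit4) and none was lower, with a list median of 0.94 (log2) against 0.0038 over all genes. Tsc22d3, which encodes the glucocorticoid-induced protein GILZ, was at 147, 133 and 248 CPM in LC and 64.1, 57.9 and 60.9 in LA.

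**Figure D5:**
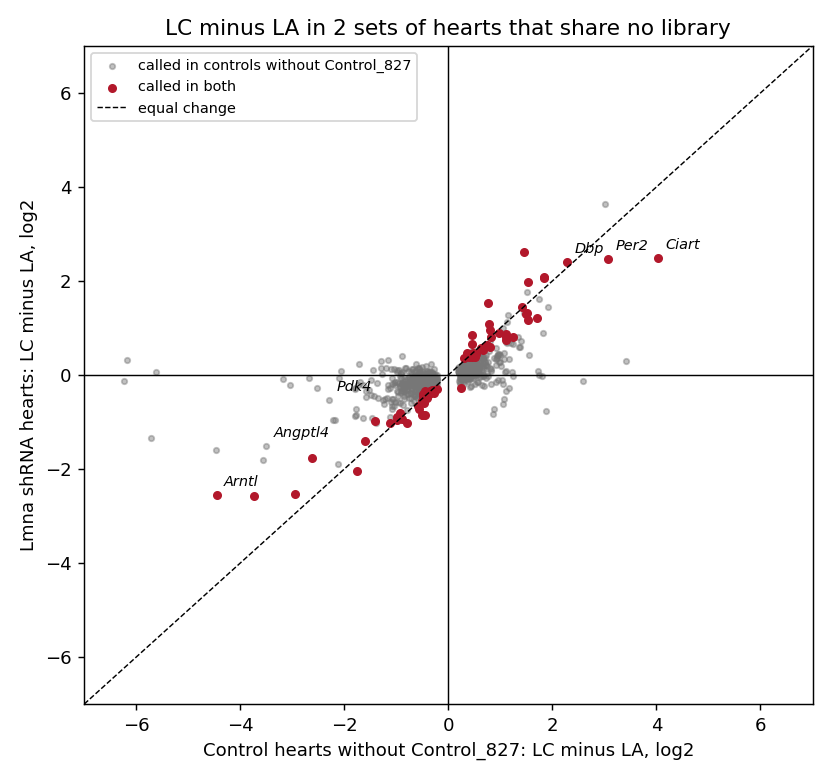
LC minus LA differences (log2) in control hearts without Control_827 (horizontal) and in Lmna shRNA hearts (vertical) for the 831 genes called in the former. Grey dots are called in controls alone, red dots in both, and the dashed line marks equal change. Ciart, Per2 and Dbp lie at the upper right and Arntl at the lower left, and 704 of 831 genes have the same sign in both. The same-sign share over all genes tested was not computed.

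The mean of the 188 genes, each signed by its direction in shRNA hearts and set against the LA control mean, placed the controls in the same order. It was 0.535 and 0.521 (log2 CPM) in Control_377 and Control_378, 0.0785 in Control_827, and -0.041, -0.00047 and 0.042 in the LA controls. Control_827 was above all LA controls, by 0.0785 against 0.042 for the next, and far below the other LC controls. The range was 0.749 to 0.899 in LC shRNA hearts and 0.00059 to 0.0854 in LA ones, whose difference the choice of genes fixes. It was 0.581 to 0.699 with lamin C and -0.021 to 0.0077 with lamin A.

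The difference of the batch effect between shRNA and control hearts was tested directly and passed for 1 gene (0.00559%), with 1143 at an unadjusted p under 0.05 and 8 called by DESeq2. Without Control_827 the count was 48, and it was 0 without Control_377, Control_775 or the second LA shRNA library, and 2 and 3 without the second and the third LC shRNA library.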

How the data were processed

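Polyadenylated RNA of heart apex was sequenced with a directional kit, per the labels' protocols. The submitters' processing notes name HISAT2 2.0.5, featureCounts 1.5.0-p3, StringTie 1.3.3b, DESeq2 1.20.0 and build mm10. No source used here says whether counting used strand, so overlapping and antisense genes, and copies such as pseudogenes, are uncertain. The authors deposited raw read counts per gene and FPKM values. The deposited FPKM equal the count divided by gene length and an adjusted library size. CPM, fold changes and tests were computed here from the deposited counts with edgeR 4.0.16 in R 4.3.3. That used TMM scaling, filterByExpr, 1 quasi-likelihood fit of all 18 libraries in 6 groups, and Benjamini-Hochberg adjusted p under 0.05 over all genes tested. log2 CPM used a prior count of 2. Levels between genes are FPKM medians. The script was tested on simulated data. Libraries were compared for duplicates, and none was found: the chi-square of counts per degree of freedom was 6.38 to 24.9 over control pairs. Equal replicate numbers were not taken as pairs, since deviations of same-numbered controls correlated at -0.058, 0.079 and 0.017. Alternatives used DESeq2 1.42.0 and limma 3.58.1.

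The members and gene lists were chosen with earlier results of these data known. Named genes are Lmna, clock and clock output genes, the 10 largest called changes in each direction without overlap, up to 4 called members of each list, the 25 highest nuclear genes, and the 12 genes in each direction by which Control_827 most exceeded the others. The largest changes without Control_827, and the genes where it lay with its batch, were named after their values were seen. Values of some genes, among them the 1 gene that passed the test of the difference between the batch effects, are not reported here.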

Additional observations from a re-analysis of the deposited data

Results flagged for a closer look

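The summed CPM of mesothelial markers was 12.7 in Control_827, with the next highest control at 7.03 and the lowest at 4.21, a gap of 0.667 of the whole range. This was the 1 of 39 measures over the 6 controls (38 list sums and the mitochondrial share) with a sample that far from the others, and chance flags about 1 in 20.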

How the results depend on the processing

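With all 3 LC controls the count of 19 genes was 192 with DESeq2 and 647 with no filter on low counts. With the 6 controls fitted alone it was 0, and 1 once a term for Control_826 and Control_827 was added to that fit. It was 0 and 5 with limma-trend on log2(FPKM + 1) and log2(FPKM + 0.1), and 11 at 1.5-fold or more. Without both Control_826 and Control_827 it was 632, and it was 0 to 831 when 1 control was left out. Of the 647, 644 were also tested with the filter, and 453 were called in the same direction without Control_827. The count of 831 was 1295 with no filter and 1284 with the 5 controls alone, 756 to 1090 with other scaling or DESeq2, and 261 to 632 with 1 more control left out, a setting chosen after seeing the data. Where that leaves 1 LC library, it is assumed to vary like the other groups. The 188 shRNA calls were 351 with DESeq2, 806 with no filter and 56 to 221 when 1 library was left out, and the 1 call of the difference was 8, 247 and 0 to 48. The replicate block, on numbers that do not pair the samples, gave 14, 189 and 1, and of the replicates only the second correlated best with its own number. Control_827 lay outside the other 5 controls in 11 genes at 1.5-fold and 1 at 4-fold. The mitochondrial share difference ran from -1.55 to -1.23 points. Of 559 values of 33 genes under alternatives, 334 kept their direction and their status, which could be called or not called. Only 19 of the 33 genes were called in the main fit with all controls. Among the 559, 175 values lost the call, 50 gained one and none reversed. The cause of these shifts was not tested. Batch and any other difference between the 2 sets of controls cannot be told apart, and 3 libraries a group limit the precision.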

Other observations

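Among the 5 controls other than Control_827, the genes of widest range included 3 outside the clock and fasting genes. Of these, Gapdh and Sumo2 did not follow the batches. Gapdh, a glycolytic enzyme with many near-identical pseudogenes, was at 28.6, 28.3, 22.8, 220.6 and 21.9 CPM in Control_377, Control_378, Control_774, Control_775 and Control_826, and at 98.7 in Control_827. Sumo2, which also has close copies, was at 35.5, 6.42, 16.1, 53.1 and 39.5 in those 5 and 6.51 in Control_827. The levels of both are therefore uncertain. Cyp26b1, a retinoic acid hydroxylase, was at 89.8 CPM in Control_377 against 30.8 in Control_378 and 13.0 to 19.8 in the LA controls, with Control_827 at 30.4. For this gene all LC controls, Control_827 among them, were above all LA controls.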
